A study of Mus musculus with 6 samples.

Results

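Neutrophil and monocyte genes were followed in CD11b-positive cells sorted from the lumbar spinal cord of SOD1 G93A mice and of their WT littermates. The genes are 31 in number, listed by name for their known expression in neutrophils or monocytes. They were chosen with earlier results of these data known, and 29 of them were measured, among 18193 genes on the array. Where several probe sets are annotated to a gene alone, the brightest over the 6 arrays served as its measure. The measured genes fall into 10 granule proteins, 10 other neutrophil genes and 9 monocyte genes. *Retnlg*, which encodes a resistin-like protein of mouse neutrophils, is not named in the probe table used here, and the only probe set of the Ly6C gene *Ly6c2* is also annotated to *Ly6c1*, so neither has a value.

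There were 3 arrays per genotype. The SOD1 G93A arrays held RNA from males of the high-copy line B6SJL-Tg(SOD1-G93A)1Gur/J at 90 days of age, which carry the human SOD1 gene with a mutation of familial amyotrophic lateral sclerosis (ALS), and the WT arrays held RNA from wild-type male littermates of the same age, and no treatment is named for either. The promoter of the transgene is not given in the sources used here. Each array is a pool of at least 6 mice, so p-values measure the spread between pools and not between animals, and so few arrays limit the precision. The mice were perfused, the cords were dissociated with enzymes, and cells were kept by an antibody to CD11b after dead cells had been gated out. CD11b, encoded by *Itgam*, is an integrin subunit that neutrophils and monocytes carry as well as microglia, so this sort does not part these cells.

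Neutrophils are short-lived granulocytes that leave the bone marrow with their granules filled. The granules are laid down in a fixed order: azurophil granules with myeloperoxidase and serine proteases in promyelocytes, then specific granules with lactoferrin and cathelicidin, then gelatinase granules, and the messages for these proteins fall away as the cell matures. Monocytes come from related progenitors, circulate in the blood and can become macrophages in tissue, and the transcription factors PU.1 and C/EBP drive many genes of both lineages.

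To set the differences in signal beside the sequence that each gene is read from, 300-base promoters (250 bases before the start of the gene to 50 after it, RefSeq, build GRCm38.p6) were searched on both strands for 5 patterns. A promoter was at hand for 27 of the 31 genes, and for *Mmp9*, *Fn1*, *Cd24a* and *Hp* none was at hand. A gene with several promoters counts as holding a pattern where any of them does, while the share over all genes counts each promoter. GAGGAAG, a core that PU.1 is known to bind, was in the promoters of all 4 azurophil genes, in 2 of 5 genes of specific and gelatinase granules, in 1 of 9 other neutrophil genes and in 2 of 9 monocyte genes, against 13.6% of 32851 promoters of all genes. The 4 azurophil promoters are shown around their match, with GAGGAAG in capitals, each read 5′ to 3′ on the strand of its gene (*Mpo* chr11:87793534-87793613, plus strand, *Elane* chr10:79886190-79886269, plus strand, *Prtn3* chr10:79879535-79879614, plus strand and *Ctsg* chr14:56102745-56102824, minus strand).
Mpo: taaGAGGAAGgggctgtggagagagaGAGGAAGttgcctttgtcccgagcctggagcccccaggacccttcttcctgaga
Elane: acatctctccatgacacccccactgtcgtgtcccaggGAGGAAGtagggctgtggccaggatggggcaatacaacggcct
Prtn3: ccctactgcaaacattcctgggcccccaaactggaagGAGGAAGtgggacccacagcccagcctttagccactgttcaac
Ctsg: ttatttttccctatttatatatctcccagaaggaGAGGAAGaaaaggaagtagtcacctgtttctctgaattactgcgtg
The match began 85 bases before the start in *Elane*, 95 in *Prtn3* and 216 in *Ctsg*, while *Mpo* held 2 matches. *Prtn3* and *Elane* are neighbours on chromosome 10.

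TTGCNNAA, a pattern to which C/EBP factors are known to bind, was in the promoters of 4 of 5 genes of specific and gelatinase granules and of 0 of 4 azurophil genes, against 10.8% of all promoters. It was also in 1 of 9 other neutrophil genes (*Retnlg*) and in 1 of 9 monocyte genes (*Plac8*, in 1 of its promoters). *Camp* was the gene of specific and gelatinase granules without it. The 4 promoters are shown with the pattern, or its reverse complement, in capitals (*Ltf* chr9:111019181-111019260, plus strand, *Ngp* chr9:110419761-110419840, plus strand, *Lcn2* chr2:32387910-32387989, minus strand and *Mmp8* chr9:7558374-7558453, plus strand).
Ltf: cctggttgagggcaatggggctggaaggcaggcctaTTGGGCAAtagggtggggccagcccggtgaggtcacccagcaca
Ngp: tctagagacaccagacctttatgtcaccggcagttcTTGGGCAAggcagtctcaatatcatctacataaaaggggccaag
Lcn2: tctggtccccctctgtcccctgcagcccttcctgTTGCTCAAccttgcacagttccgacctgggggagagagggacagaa
Mmp8: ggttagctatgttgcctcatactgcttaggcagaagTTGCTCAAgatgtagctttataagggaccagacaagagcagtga
GAGGAA, which GAGGAAG contains, was in the promoters of 16 of the 27 genes (59.3%, against 28.3% of all promoters). AACNGNC, bound by MYB factors, was in those of 11 genes (40.7% against 32.8%), and the TATA pattern TATAAA in those of 5 (18.5% against 13.6%). These matches describe letters in a window and are not measured binding sites.

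Most of the neutrophil and monocyte genes had a lower signal in SOD1 G93A than in WT. Those that passed the test included *Ceacam10*, *Padi4*, *Hdc*, *Cxcr2* and the azurophil protease genes *Prtn3* and *Ctsg*, but not *Elane*. Of the 29 genes, 12 were lower at an adjusted p under 0.05 (limma, Benjamini-Hochberg over all genes) and 0 were higher, where 2.53% of all genes were lower and 4.09% higher. At an unadjusted p under 0.05, 20 were lower and 0 higher, where 8.86% of all genes were lower and 12.7% higher. The median log2 fold change was -0.86, beside 0.02 over all genes, and 27 of the 29 values were negative. In 14 genes all SOD1 G93A arrays lay below all WT arrays, as in 10.9% of all genes, and in 1 gene, *Csf3r*, all lay above, as in 16.6% of all genes. In RNA of pooled cells, fewer cells of a type, a smaller share of them and less RNA per cell cannot be told apart. The paper counted more CD11b-positive cells in SOD1 G93A than in controls, and the part of this in the differences was not tested.

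**Figure D1:**
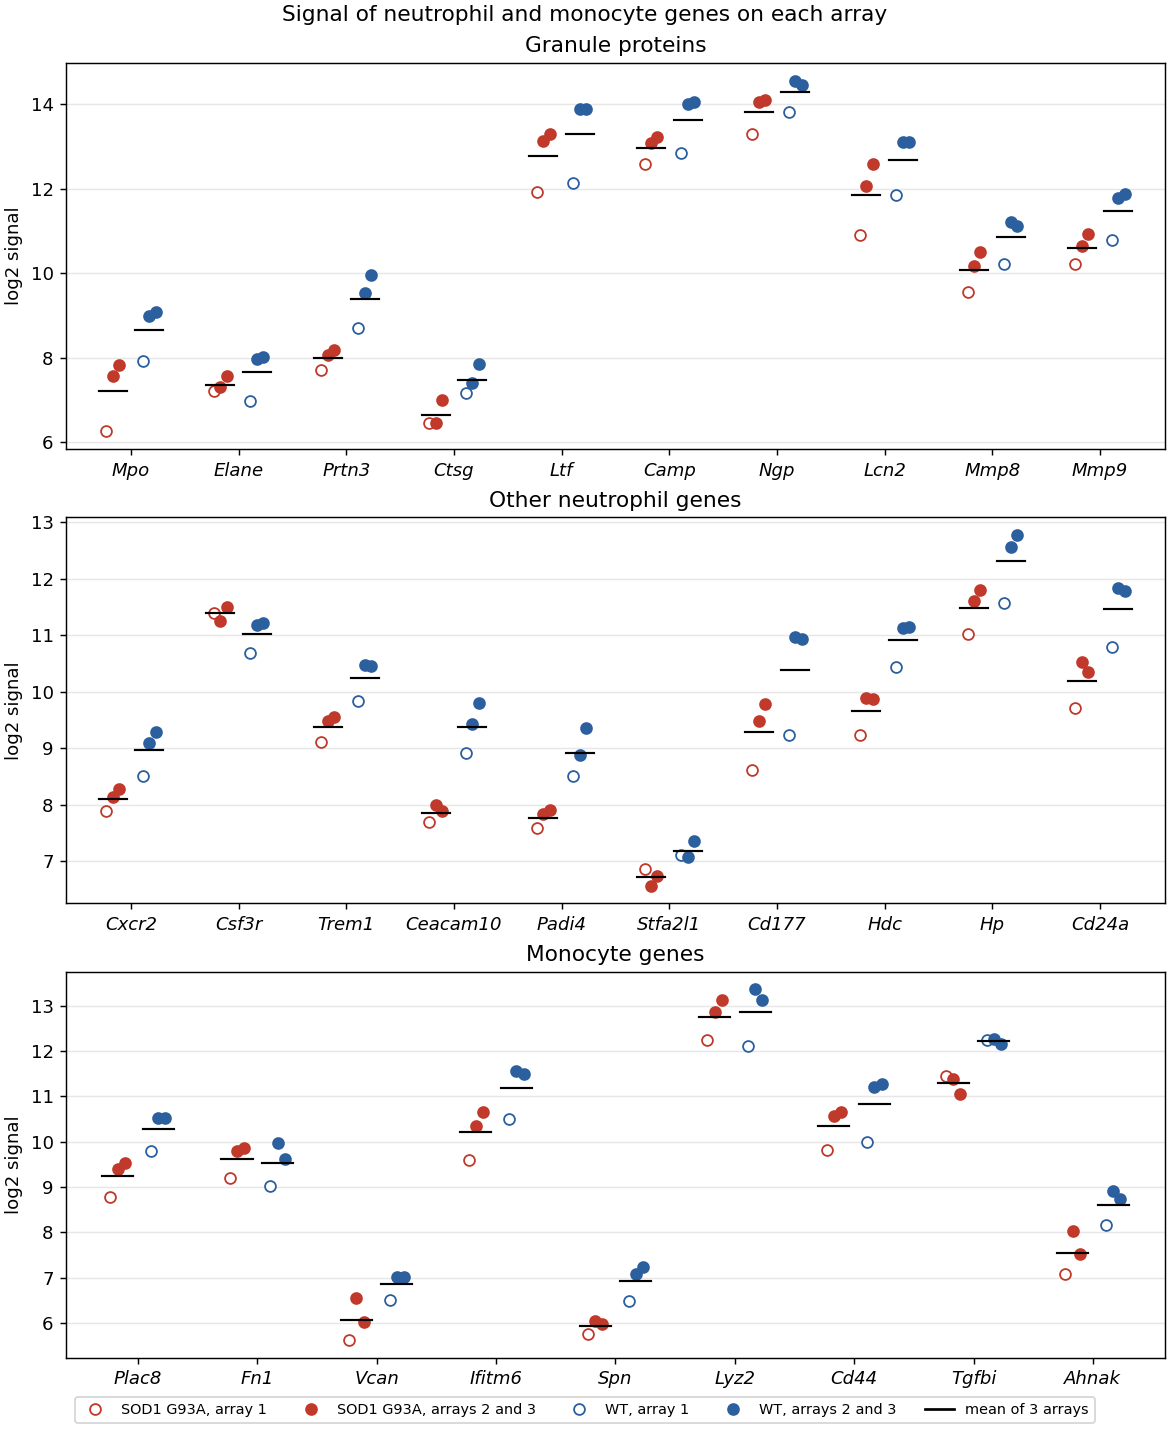
Log2 signal of each gene on each array (vertical axis), with SOD1 G93A in red to the left of WT in blue, open circles for the arrays numbered 1 and lines for the mean of 3 arrays. The arrays numbered 1 carry the lowest signal of their genotype in most genes, and *Csf3r* is the gene whose SOD1 G93A points all lie above WT.

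The 2 arrays numbered 1 stood apart from the others in these genes, and over all probe sets as well. The second principal component of all probe sets, a main axis of difference between arrays, held 28% of the variance. On it SOD1 G93A array 1 was at 35.56 and WT array 1 at 34.38, and the other arrays at -25.12 to -9.15. The SOD1 G93A array 1 was the lowest of its genotype in 25 of the 29 genes and the WT array 1 in 27, both together in 25 (86.2%), where over all genes this held for 15.2%. The mean signal of the 29 genes was 9.13, 9.66 and 9.77 on the SOD1 G93A arrays and 9.75, 10.59 and 10.64 on the WT arrays. Arrays 1 and 2 of SOD1 G93A were below every WT array, and array 3 of SOD1 G93A was level with array 1 of WT. The spread inside a genotype was wide: the median SD of a gene was 0.436, beside 0.151 over all genes. With both arrays numbered 1 left out, 25 of the 29 genes were lower, where 4.6% of all genes were, with a median of -0.97. That fit has 2 arrays per genotype. Leaving out arrays that are low in these same genes also narrows their spread, so the higher count is no separate support.

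**Figure D2:**
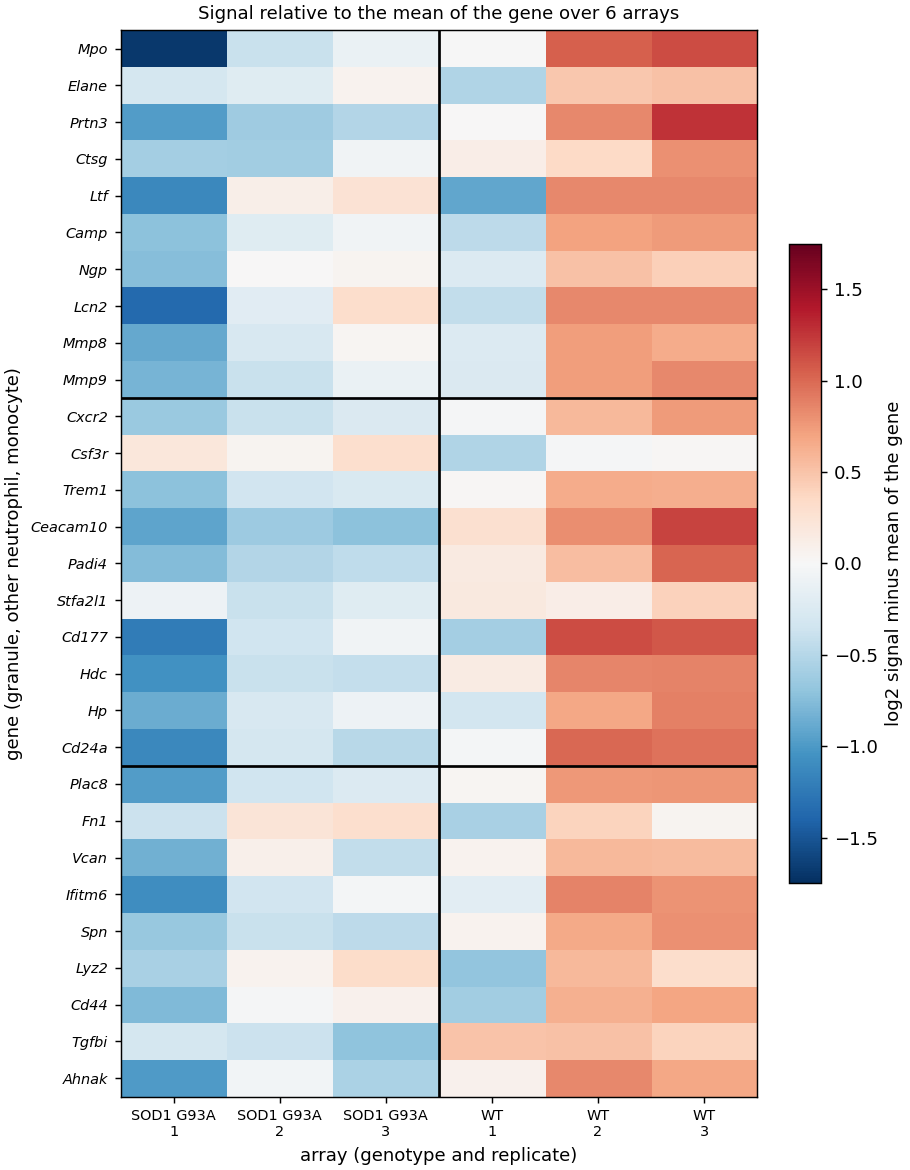
Log2 signal of each gene (rows, with black lines between granule, other neutrophil and monocyte genes) minus its own mean over 6 arrays, for the SOD1 G93A and WT arrays (columns). Blue cells lie below the mean of the gene and red cells above it. WT arrays 2 and 3 are above the mean in nearly every row, and the array numbered 1 is bluer than its fellows in most rows of both genotypes.

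Among the azurophil proteins, the first granule proteins that a neutrophil precursor makes, *Prtn3* and *Ctsg* were lower. *Prtn3*, which encodes the serine protease proteinase 3, had log2 signals of 7.72, 8.07 and 8.17 in SOD1 G93A and 8.70, 9.54 and 9.95 in WT, a level 2.65-fold lower (log2 fold change -1.41, standard error 0.28, adjusted p = 0.0227). Every SOD1 G93A array lay below every WT array, by a clear gap. *Ctsg*, which encodes cathepsin G, a protease of the same granule, had 6.46, 6.44 and 6.99 in SOD1 G93A and 7.16, 7.39 and 7.85 in WT (log2 fold change -0.84, standard error 0.21, adjusted p = 0.0464), again without overlap though the highest SOD1 G93A array came close to the lowest WT array. *Mpo*, which encodes myeloperoxidase, the enzyme that makes hypochlorous acid, had 6.25, 7.55 and 7.82 in SOD1 G93A and 7.93, 8.98 and 9.08 in WT. Its groups did not overlap either, and its difference was as large as that of *Prtn3* (-1.45, 95% interval -2.41 to -0.50), but the gene did not pass (adjusted p = 0.0777). Without SOD1 G93A array 1, the lowest of the 6, *Mpo* was at -0.98 and did not pass (limma, adjusted p = 0.115), and without WT array 1 it was at -1.82 and passed (adjusted p = 0.03). *Elane*, which encodes neutrophil elastase, had 7.20, 7.29 and 7.57 in SOD1 G93A and 6.98, 7.97 and 8.01 in WT (-0.30, adjusted p = 0.574). Array 1 of WT was the lowest of all 6 in *Elane*, below every SOD1 G93A array, while arrays 2 and 3 of WT were above them all. Its difference was -0.64 without WT array 1, which passed (limma, adjusted p = 0.0332), and -0.14 and -0.12 without WT arrays 2 and 3. The 4 azurophil genes, whose promoters all held GAGGAAG, had a median of -1.12, and 2 of them passed. Without both arrays numbered 1 all 4 did.

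Of the 6 proteins of specific and gelatinase granules, 0 passed (limma, with 2 lower at an unadjusted p under 0.05), although all 6 log2 fold changes were negative (median -0.71). *Ltf*, which encodes the iron-binding protein lactoferrin, had 11.92, 13.14 and 13.29 in SOD1 G93A and 12.13, 13.88 and 13.87 in WT (-0.52, 95% interval -1.65 to 0.62). The arrays numbered 1 were more than a log2 unit below their fellows in both genotypes, and the 2 groups overlapped. *Camp*, the gene of the antimicrobial peptide cathelicidin, had 12.58, 13.09 and 13.23 in SOD1 G93A and 12.84, 14.01 and 14.04 in WT (-0.66, adjusted p = 0.262), and *Ngp*, the gene of neutrophilic granule protein, had 13.30, 14.06 and 14.09 in SOD1 G93A and 13.81, 14.56 and 14.46 in WT (-0.46, adjusted p = 0.339). In both, arrays 2 and 3 of WT were the highest of the 6 and array 1 of WT fell among the SOD1 G93A arrays. Many of these signals are above 13, close to the brightest of an array (14.51 to 14.59), where the size of a difference is uncertain, since saturation was not tested.

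*Lcn2*, which encodes lipocalin 2, a protein that withholds iron from bacteria by binding their siderophores, had 10.90, 12.07 and 12.58 in SOD1 G93A and 11.84, 13.11 and 13.10 in WT (-0.84, 95% interval -1.86 to 0.18). *Mmp8*, which encodes the neutrophil collagenase, had 9.56, 10.17 and 10.50 in SOD1 G93A and 10.22, 11.20 and 11.11 in WT (-0.77, adjusted p = 0.171). *Mmp9*, which encodes gelatinase B, had 10.22, 10.65 and 10.93 in SOD1 G93A and 10.78, 11.77 and 11.88 in WT (-0.88, adjusted p = 0.115). Each of them had arrays 2 and 3 of WT above every SOD1 G93A array, and array 1 of WT inside the SOD1 G93A range. Without both arrays numbered 1, 5 of these 6 genes were lower, all but *Ngp* (adjusted p = 0.0561), with values between -1.03 for *Mmp9* and -0.67 for *Ltf*. Leaving out single arrays also moved these values. Without SOD1 G93A array 1 *Ltf* was at -0.084, *Ngp* at -0.20, *Lcn2* at -0.36 and *Mmp8* at -0.51, while without WT array 1 *Ltf* was at -1.10, *Ngp* at -0.69, *Lcn2* at -1.26 and *Camp* at -1.06. *Camp* passed without WT array 1 (limma, adjusted p = 0.0158), as did *Mmp8* (-1.08, adjusted p = 0.0335). *Ltf* was also closer to 0 without WT array 2 (-0.22) or WT array 3 (-0.23). Over the 10 granule genes, whose mean signal was 9.61, 10.25 and 10.52 on the SOD1 G93A arrays and 10.24, 11.24 and 11.34 on the WT arrays, 2 were lower with all arrays and 9 without both arrays numbered 1.

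Of the 10 genes listed as other neutrophil genes 6 were lower and 0 higher, with a median of -0.98. *Ceacam10*, which encodes a secreted member of the carcinoembryonic antigen family, had the largest difference of the 29, 2.87-fold lower, with 7.86 ± 0.15 in SOD1 G93A and 9.38 ± 0.45 in WT (SD, n = 3 each, log2 fold change -1.52, standard error 0.21, adjusted p = 0.00571). Its arrays read 7.70, 7.99 and 7.90 in SOD1 G93A and 8.91, 9.43 and 9.81 in WT, so nearly a whole log2 unit parted the highest of one group from the lowest of the other. A second probe set had a log2 fold change of -1.07 and did not pass, and the other probe set, close to background, had 0.04. *Padi4*, which encodes the enzyme that citrullinates histones when neutrophils release chromatin traps, was 2.21-fold lower, with 7.59, 7.83 and 7.90 in SOD1 G93A and 8.50, 8.89 and 9.36 in WT (log2 fold change -1.14, standard error 0.20, adjusted p = 0.0147). *Hdc*, the gene of histidine decarboxylase, the enzyme that makes histamine, was 2.36-fold lower, with 9.23, 9.89 and 9.88 in SOD1 G93A and 10.44, 11.14 and 11.15 in WT (log2 fold change -1.24, standard error 0.24, adjusted p = 0.0189). Every probe set of *Hdc* has a suffix in its name that marks possible cross-hybridisation. *Hdc* is also a gene of mast cells and basophils. Of 9 other markers of these cells 0 passed (limma, 0 at an unadjusted p under 0.05), and their mean signal was 5.17 to 5.43 in SOD1 G93A and 5.10 to 5.47 in WT. Their part in the difference of *Hdc* was not tested.

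Among receptors and surface proteins *Cxcr2*, *Trem1* and *Cd24a* were lower. *Cxcr2*, the receptor for the chemokines that call neutrophils out of the marrow and into tissue, had 7.89, 8.14 and 8.29 in SOD1 G93A and 8.51, 9.10 and 9.28 in WT (log2 fold change -0.86, standard error 0.20, adjusted p = 0.0393). *Trem1*, which encodes a receptor that amplifies the inflammatory response of neutrophils and monocytes, had 9.10, 9.48 and 9.55 in SOD1 G93A and 9.83, 10.46 and 10.46 in WT (log2 fold change -0.87, standard error 0.19, adjusted p = 0.0334). Neither gene had overlapping groups. *Cd24a*, which encodes a small lipid-anchored surface glycoprotein that lymphocyte precursors and neurones also carry, was 2.43-fold lower, with 9.71, 10.52 and 10.35 in SOD1 G93A and 10.79, 11.84 and 11.78 in WT (log2 fold change -1.28, standard error 0.30, adjusted p = 0.0395). Its 3 probe sets were all negative without overlap, and one of the others passed too. The remaining one, which has no suffix in its name, was at -1.20 and did not pass (limma, adjusted p = 0.0618 over all probe sets). *Cd177*, a surface glycoprotein gene of neutrophils, had 8.62, 9.48 and 9.78 in SOD1 G93A and 9.23, 10.97 and 10.93 in WT. In *Cd177* the arrays numbered 1 stood well below their fellows, the groups overlapped, and the gene did not pass with all arrays (-1.09, adjusted p = 0.212) but passed without both arrays numbered 1 (-1.32, adjusted p = 3.80e-04) and without WT array 1 alone (-1.66, limma adjusted p = 0.0145).

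*Hp*, which encodes haptoglobin, the protein that binds free haemoglobin, had 11.02, 11.61 and 11.79 in SOD1 G93A and 11.57, 12.57 and 12.77 in WT (-0.83, adjusted p = 0.155), with array 1 of WT inside the SOD1 G93A range. *Stfa2l1*, of the stefin A family of cysteine protease inhibitors, had 6.87, 6.57 and 6.74 in SOD1 G93A and 7.12, 7.07 and 7.36 in WT (-0.46, adjusted p = 0.0674). Its groups did not overlap, but mouse stefin A genes are near-identical copies and which of them gave the signal was not tested. With *Tgfbi* it was the gene in which neither array numbered 1 was the lowest of its genotype.

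*Csf3r*, which encodes the receptor for G-CSF, the growth factor of neutrophils, ran the other way. It had 11.40, 11.26 and 11.50 in SOD1 G93A and 10.69, 11.18 and 11.22 in WT, so each SOD1 G93A array was above each WT array, if by a little (0.36, 95% interval -0.00037 to 0.71, adjusted p = 0.232). The gene did not pass, and without both arrays numbered 1 the difference was 0.18 (adjusted p = 0.504).

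**Figure D3:**
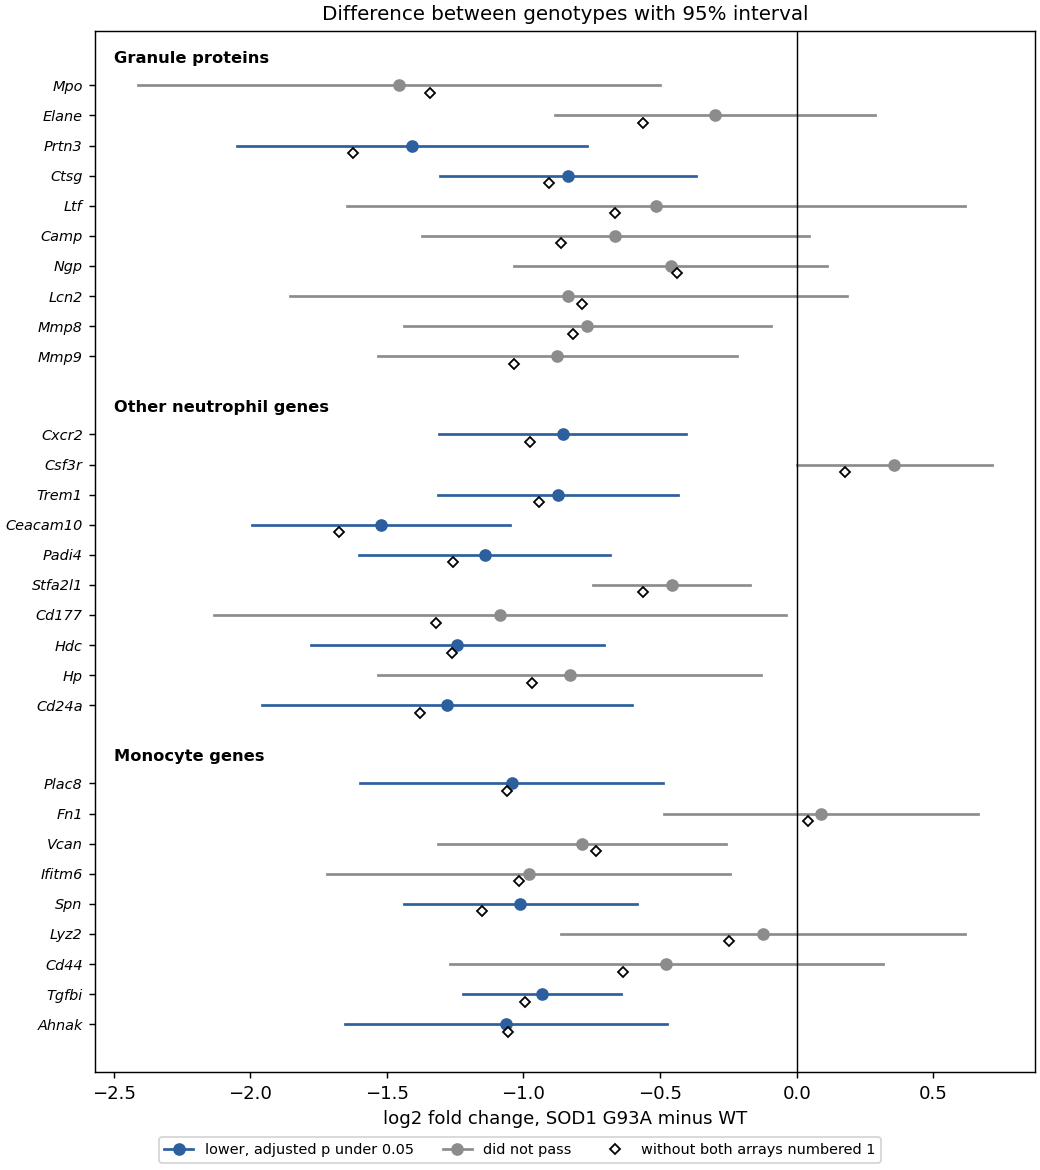
Log2 fold change (SOD1 G93A minus WT, horizontal axis) of each gene, with filled circles and 95% intervals from limma over all arrays, in blue where lower at an adjusted p under 0.05 and grey where the gene did not pass, and open diamonds for the fit without both arrays numbered 1. Of the 29 genes 12 are blue, and *Csf3r* and *Fn1* are the genes to the right of 0.

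Among the 9 monocyte genes 4 were lower and 0 higher, with a median of -0.93. *Tgfbi*, which encodes a matrix protein induced by transforming growth factor beta, had 11.44, 11.37 and 11.05 in SOD1 G93A and 12.25, 12.27 and 12.15 in WT (log2 fold change -0.93, standard error 0.13, adjusted p = 0.00577). The WT arrays were within 0.12 of each other, and array 1 did not stand apart in either genotype. The 3 other probe sets of *Tgfbi* had log2 fold changes of -0.43, -0.77 and -0.08. The one at -0.08 did not pass (limma, adjusted p = 0.893 over the 45037 probe sets), and it alone of the 4 has a name without a suffix that marks possible cross-hybridisation. *Ahnak*, which encodes a very large scaffold protein under the plasma membrane, had 7.08, 8.03 and 7.51 in SOD1 G93A and 8.15, 8.91 and 8.74 in WT (log2 fold change -1.06, standard error 0.26, adjusted p = 0.0449). Its highest SOD1 G93A array, the second, lay just below its lowest WT array, the first. The other probe sets of *Ahnak* had log2 fold changes of -0.11, -0.34 and -0.14, at mean signals of 5.67, 5.14 and 4.93. None of them passed, and with adjustment over all probe sets the one used as the measure did not either (limma, adjusted p = 0.0544).

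*Plac8*, which encodes a small cysteine-rich protein found in monocytes, neutrophils and other leukocytes, had 8.78, 9.40 and 9.52 in SOD1 G93A and 9.79, 10.52 and 10.53 in WT (log2 fold change -1.04, standard error 0.24, adjusted p = 0.0401). *Spn*, the gene of the surface mucin CD43, which is high on patrolling monocytes and on T cells, had 5.76, 6.03 and 5.97 in SOD1 G93A and 6.49, 7.09 and 7.23 in WT (log2 fold change -1.01, standard error 0.19, adjusted p = 0.0173). Both were without overlap. A second probe set of *Spn* had a log2 fold change of 0.06 and did not pass. *Ifitm6*, of the interferon-induced transmembrane family, had 9.60, 10.35 and 10.65 in SOD1 G93A and 10.51, 11.56 and 11.48 in WT (-0.98, adjusted p = 0.116), and *Vcan*, which encodes the matrix proteoglycan versican, 5.62, 6.54 and 6.03 in SOD1 G93A and 6.51, 7.02 and 7.02 in WT (-0.79, adjusted p = 0.0837). In these 2 genes array 1 of WT lay just below the highest SOD1 G93A array, and both passed without the arrays numbered 1 (-1.02 for *Ifitm6* and -0.73 for *Vcan*).

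Of the remaining monocyte genes, *Lyz2*, *Fn1* and *Cd44*, 0 passed (limma, 0 at an unadjusted p under 0.05). They are also expressed by macrophages and other cells. Expression in other cells is not particular to them among the monocyte genes, and its part in the differences was not tested. *Lyz2*, which encodes lysozyme, had 12.24, 12.87 and 13.12 in SOD1 G93A and 12.12, 13.37 and 13.12 in WT (-0.12, 95% interval -0.86 to 0.62, adjusted p = 0.881). *Fn1*, which encodes fibronectin, had 9.20, 9.80 and 9.87 in SOD1 G93A and 9.01, 9.96 and 9.62 in WT (0.09, 95% interval -0.49 to 0.66, adjusted p = 0.891). *Cd44*, the gene of the hyaluronan receptor, had 9.82, 10.57 and 10.66 in SOD1 G93A and 9.98, 11.22 and 11.28 in WT (-0.48, adjusted p = 0.497). Each overlapped between genotypes and had low arrays numbered 1. Without these arrays *Cd44* was lower (-0.63, adjusted p = 0.0112), and *Lyz2* and *Fn1* did not pass. *Cd44* was at -0.21 without SOD1 G93A array 1 and at -0.90 without WT array 1, and the sign of *Lyz2* and of *Fn1* turned when some single arrays were left out.

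The other probe sets of these genes mostly pointed the same way. In all the 29 genes have 54 probe sets, 18 genes having 1. Of the 25 that were not used as the measure, 9 had a mean signal under 5, close to background. Of the 16 others 15 had a negative log2 fold change and 2 were lower, *Cd24a* (-1.61) and *Tgfbi* (-0.77), where 1.93% of all 45037 probe sets were lower, with p-values adjusted over all of them. *Mmp9* had a second probe set at -1.06, *Vcan* 1 at -1.06, *Trem1* 1 at -0.61 and *Hdc* 1 at -0.43, none of which passed.

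Further genes of the same cells, from lists of textbook genes also chosen with earlier results of these data known, were read in the same fit. Of 21 other neutrophil genes 4 were lower and 0 higher (median -0.78, 20 of 21 negative): *Gda*, which encodes guanine deaminase (-1.49, adjusted p = 0.00143), the whey acidic protein family gene *Wfdc21* (-1.10, adjusted p = 0.0197), *Gfi1*, a repressor needed for neutrophil development (-1.10, adjusted p = 0.0232), and *Mcemp1* (-0.91, adjusted p = 0.0197). *Gda* had 9.24, 9.46 and 9.10 in SOD1 G93A and 10.53, 10.90 and 10.85 in WT, with more than a log2 unit between the groups. *Gfi1* averaged below 5 in SOD1 G93A, close to background. Without both arrays numbered 1, 18 of the 21 were lower.

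Of 8 genes of promyelocytes and myeloid progenitors, *Gfi1* was lower and *Cd34*, a surface gene of progenitors and endothelium, was higher (0.998, adjusted p = 0.0213). *Cd34* had 10.72, 11.07 and 11.39 in SOD1 G93A and 9.86, 10.39 and 9.94 in WT, all SOD1 G93A arrays above all WT arrays. Of 19 further monocyte genes 5 were lower and 0 higher (median -0.57), among them *Ccr2*, the chemokine receptor that classical monocytes use to leave the marrow (-1.22, adjusted p = 0.00281), and the calcium-binding protein genes *S100a10* (-1.21), *S100a6* (-1.11) and *S100a4* (-1.09). *Ccr2* had 7.58, 8.02 and 7.66 in SOD1 G93A and 9.08, 8.98 and 8.86 in WT, without overlap and with no array numbered 1 at the bottom of WT. Of 13 genes for G-CSF and for chemokines that act on neutrophils and monocytes, 1 was lower, the platelet factor gene *Pf4* (-1.003, adjusted p = 0.0126), and the median was -0.04.

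**Figure D4:**
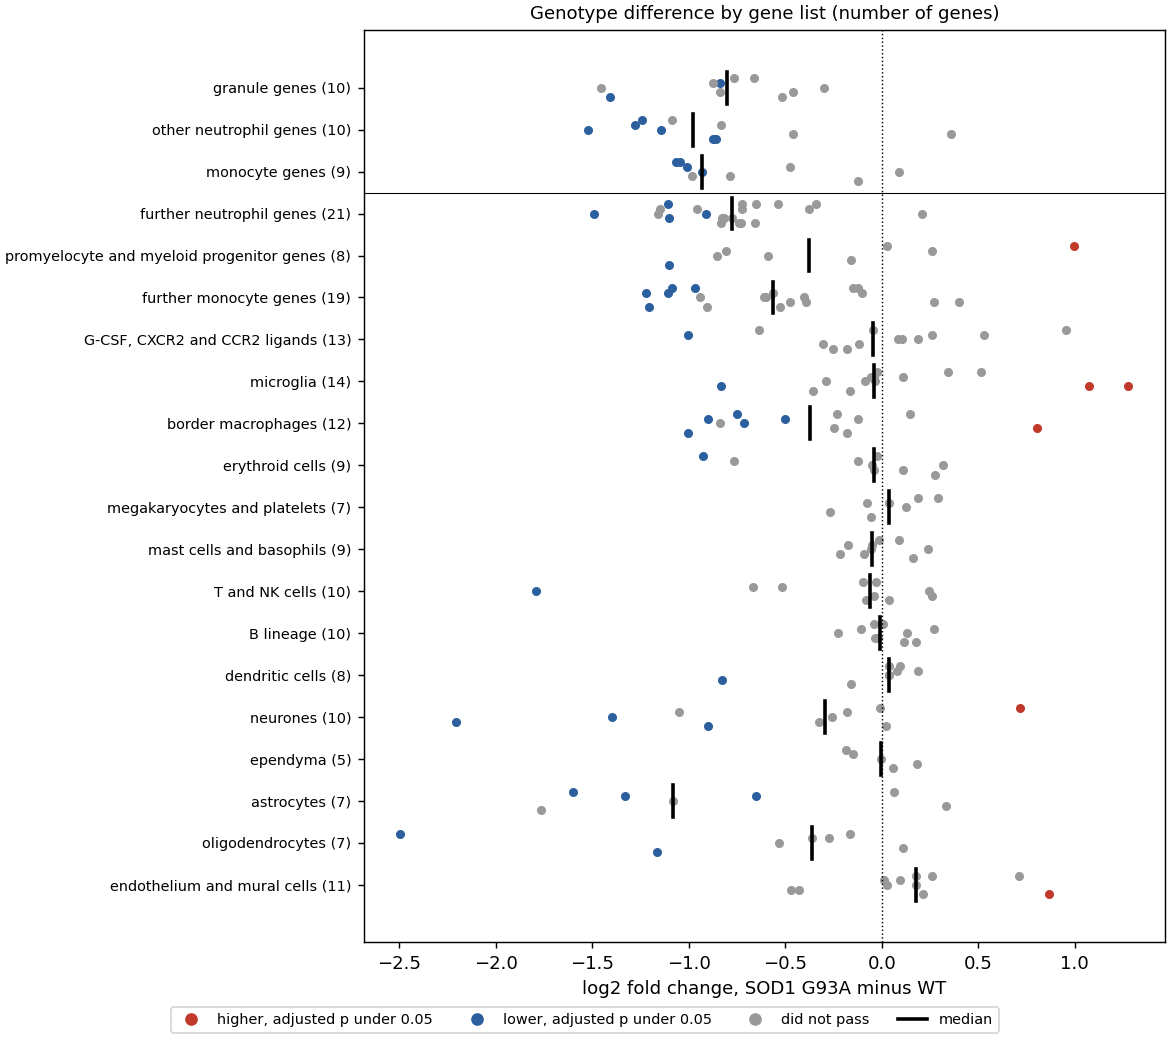
Log2 fold change (SOD1 G93A minus WT, horizontal axis) of each of the granule, other neutrophil and monocyte genes and of each gene of the other lists (rows), in red where higher and blue where lower at an adjusted p under 0.05, grey where it did not pass, with a bar at the median of each list. The medians of the granule, other neutrophil, monocyte and further neutrophil genes lie between -0.98 and -0.78, and the markers of astrocytes, with 7 genes, lie at -1.08.

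The microglial markers had a median close to 0. *Itgam*, the gene of the sorted antigen, had 8.72, 8.66 and 8.74 in SOD1 G93A and 8.40, 8.996 and 8.79 in WT (-0.02, adjusted p = 0.952). Of 14 microglial markers 2 were higher, *Trem2* (1.28) and *Fcrls* (1.07), and 1 was lower, *Sall1* (-0.83), with a median of -0.04 and mean signals of 11.47 to 11.65 in SOD1 G93A and 11.37 to 11.56 in WT. Of 12 markers of macrophages at the borders of the nervous system 5 were lower, among them *Pf4*, *Maf* (-0.90), *Lyve1* (-0.75) and *Mrc1* (-0.71), and 1 was higher, *Ms4a7* (0.80), with mean signals of 8.37 to 8.63 in SOD1 G93A and 8.79 to 9.04 in WT.

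Some markers of other cells of the cord and of blood were lower too. Of 7 oligodendrocyte markers 2 were lower, *Mobp* (-2.49) and *Mbp* (-1.16), and the mean signal of the list was 8.29 to 8.48 in SOD1 G93A and 8.96 to 9.22 in WT. Of 7 astrocyte markers 3 were lower, *Slc1a2* (-1.60), *Aldoc* (-1.33) and *Slc1a3* (-0.65), with a mean signal of 6.72 to 7.45 in SOD1 G93A and 7.62 to 8.40 in WT. Of 10 neuronal markers 3 were lower, *Nefl* (-2.20), *Map2* (-1.40) and *Nefm* (-0.90), and *Eno2* was higher (0.72), with a mean signal of 5.01 to 5.11 in SOD1 G93A and 5.49 to 5.76 in WT. In blood cells, 1 of 9 erythroid markers was lower (*Alas2*, -0.93, mean signal 5.42 to 5.54 in SOD1 G93A and 5.59 to 5.63 in WT), 1 of 10 of T and NK cells (*Klrd1*, -1.79), 1 of 8 of dendritic cells (*Clec10a*, -0.83), and 0 of 10 of the B lineage and 0 of 7 of megakaryocytes (limma, 0 at an unadjusted p under 0.05 in either). *Flt1* was higher among 11 markers of vessels (0.87), and 0 of 5 ependymal markers passed (0 at an unadjusted p under 0.05). The part of these cells in the lower neutrophil and monocyte genes was not tested.

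One of the measures of RNA length also lay apart between genotypes. The gap between the 3′ and 5′ control probe sets of *Gapdh*, in log2 units, widens as copied RNA gets shorter, and was 4.63, 4.28 and 3.47 on the SOD1 G93A arrays and 5.01, 4.79 and 4.87 on the WT arrays, without overlap. The same gap for actin was 3.36, 2.75 and 1.92 on the SOD1 G93A arrays and 3.88, 2.90 and 3.49 on the WT arrays, and overlapped. With the *Gapdh* difference as a covariate 0 of the 29 genes and 25 of all genes were lower (limma), while 24 of the 29 were lower at an unadjusted p under 0.05, as were 5.73% of all genes. With the covariate, 27 of the 29 fold changes were more negative than without it, and the median was -1.31, beside 0.06 over all genes. The *Gapdh* gap did not overlap between genotypes, so its part and that of genotype cannot be told apart in these arrays. *Mpo* was at -2.47, *Lcn2* at -1.97, *Prtn3* at -1.78 and *Ceacam10* at -1.69 with the covariate, whereas *Tgfbi* and *Stfa2l1* were closer to 0 (-0.67 and -0.41). Leaving out 1 array moved the count of 12 lower genes to 6, 3 and 2 without SOD1 G93A arrays 1, 2 and 3, and to 21, 2 and 3 without WT arrays 1, 2 and 3, and *Ceacam10* and *Tgfbi* were the 2 that passed each time. Over all genes the count of lower genes, 461 with every array, was 389, 148 and 103 without SOD1 G93A arrays 1, 2 and 3, and 539, 141 and 169 without WT arrays 1, 2 and 3. The methods' t-test, with unequal variance, called 0 of the 29 and 0 of all genes after adjustment. At an unadjusted p under 0.05 it called 13 of the 29 lower, and 5.29% of all genes.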

How the data were processed

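CD11b-positive lumbar cells of 3 pools per genotype were measured on the Affymetrix whole-genome mouse array. For each probe set the authors deposited a log2 signal, made by RMA in Partek according to the submitters' processing notes, with no version given. The paper's methods name MAS 5.0, whose values are not used here. The methods describe a double amplification of small samples, and the labels a standard protocol from micrograms of RNA, so which of them was used is not settled.

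With genotype as the term, limma 3.58.1 (R 4.3.3) was fitted to 45037 probe sets, 64 controls being left out, by lmFit and plain eBayes, and Benjamini-Hochberg adjustment ran over 18193 genes. Of the probe sets 34945 have 1 gene symbol in the platform table, 932 several and 9160 none. All 31 genes are named. Of each other list, up to 4 genes of the largest change among those that passed are named, with every gene that passed in the opposite direction. The genes and lists were chosen with earlier results of these data known. An array has no sequencing depth, so precision rests on how many there are. The code of the fit was tested on simulated data with independent noise for each gene and array. Such data lack the shift shared by the arrays numbered 1, so the test does not bear on it. Annotation, sequence search and figures were done in Python 3.11.15 (matplotlib 3.10.9, numpy 2.4.6, pandas 2.3.3). Alternatives were the methods' t-test, eBayes with trend and robust, other probe sets per gene, a minimum mean signal of 5, median-centred arrays, array weights, a replicate block, the *Gapdh* covariate, and arrays left out.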

Additional observations from a re-analysis of the deposited data

How the results depend on the processing

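Of the 29 log2 fold changes, 27 kept their direction under every alternative. *Fn1*, close to 0, turned negative with the mean of all probe sets (-0.077), with the *Gapdh* covariate (-0.39), and without SOD1 G93A replicate 2 (-0.000567), SOD1 G93A replicate 3 (-0.03) or WT replicate 1 (-0.17), the range over left-out replicates being -0.17 to 0.30. *Lyz2* turned positive without SOD1 G93A replicate 1 (0.13), WT replicate 2 (0.13) or WT replicate 3 (0.0027), in a range of -0.50 to 0.13. The counts of lower genes moved more, and the cause was not tested. With the methods' t-test they were 0 over all genes, 0 of the 29 and 0 in each group, and with the *Gapdh* covariate 25 over all genes, 0 of the 29 and 0 in each group (at an unadjusted p under 0.05, 963 genes and 13 of the 29 by the t-test, 1043 and 24 with the covariate). Without both arrays numbered 1 they were 837 over all genes, 25 of the 29, 9 granule, 9 other neutrophil and 7 monocyte genes. Array weights gave 731 over all genes and 4 granule genes. The granule count was 1 with eBayes with trend and robust, with adjustment over all probe sets and with median-centred arrays. With a probe set without a suffix taken wherever a gene has one, 4 other neutrophil genes were lower, *Ceacam10* moving to -1.07 and *Cd24a* to -1.20. A gene that has suffixed probe sets alone kept its measure, as *Hdc* did (-1.24). In the same setting 3 monocyte genes were lower, *Tgfbi* moving to -0.08. Leaving out 1 replicate gave 103 to 539 lower genes, 2 to 21 of the 29, 0 to 7 granule, 1 to 8 other neutrophil and 1 to 6 monocyte genes.

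With the replicate block 983 genes, 25 of the 29, 9 granule, 9 other neutrophil and 7 monocyte genes were lower. The deviations of same-numbered arrays correlated at 0.44, 0.24 and 0.04 across genes, and SOD1 G93A array 3 was closest to WT array 2 (0.42), so the arrays share a number but were not taken as pairs. Array signals above 13 or below 5 limit the size of a difference that can be read.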
